A study of Mus musculus and Homo sapiens with 9 samples.

Results

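The 9 mouse genes described here are Alas1, Alas2, Alad, Uros, Urod, Cpox, Ppox and Fech, which encode enzymes of heme synthesis, and Abcb10, a transporter of the inner mitochondrial membrane that red cell precursors need for heme synthesis. They were picked by symbol from the 43432 rows of the mouse count table, with the comparison of knockout and control libraries already known, so their differences in that comparison are given as a description and carry no test. RNA was sequenced from CD3+ T cells sorted with magnetic beads from the spleen. The 2 knockout libraries (KO) came from Vav-iCre+/-;Irf2bp2fl/fl mice. The labels call the 3 control libraries wild type, whereas the study's methods name them Vav-iCre-/-;Irf2bp2fl/fl, in which case the floxed alleles are shared by both groups and the Cre transgene is not. Vav-iCre acts across the blood lineages, red cell precursors included, and is not particular to T cells. The age of the mice is not in the labels, which also do not say whether libraries of a group came from separate mice. A second data set held J.gamma1 cells, a T-ALL line derived from Jurkat, with a control hairpin (sh-NC, 2 libraries) or a hairpin against IRF2BP2 (sh-IRF2BP2, 2 libraries), again with no word on separate cultures. The p-values below therefore measure the spread between these libraries, which may be technical.

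Heme is an iron-holding ring built from glycine and succinyl-CoA by a chain of enzymes that starts in the mitochondrion, passes through the cytosol and ends in the mitochondrion again. The first enzyme exists in 2 forms: ALAS1 is made in all nucleated cells and is held down by heme itself, whereas ALAS2 is the erythroid form and is tied to the iron supply. Red cell precursors make heme in bulk for hemoglobin, while T cells need small amounts for cytochromes and other heme proteins.

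Total counts ranged from 16668577 to 37177523 over the 5 mouse libraries, and control replicate 3 was the shallowest. In the same libraries, Irf2bp2 (ENSMUSG00000051495) had 4145, 4594 and 1915 counts in the controls and 0 and 0 in the KO. All 11 T cell markers examined were present, with summed levels of 5505 to 6024 CPM (counts scaled to a common library size) in the controls and 3971 to 4243 CPM in the KO. Erythroid markers were present in every library too. The 11 erythroid markers of the table summed to 592 to 2241 CPM in the controls and 4424 to 6219 CPM in the KO in the same libraries, with none of them at 0. In bulk RNA, a change in the number of cells of a type cannot be told apart from a change of RNA per cell.

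The start regions of the genes were read first, because several members moved together. RefSeq start sites on GRCm38.p6 were found for 8 of the 9 members, with 11 sites in all, and the 250 bases before each were searched on both strands for AGATAA or TGATAA (the letters bound by GATA factors) and for CCNCNCCC (a CACCC box, as bound by KLF factors). Over all 32851 promoters searched, 16.6% held the first motif and 45.9% the second. A GATA match lay before the Alas2 start, the Cpox start and 1 of the 2 Uros starts, so at 3 of the 11 sites. Both Alad starts, both Alas1 starts and the outer Uros start had CACCC matches and no GATA match. The inner Uros start and the Cpox start had no CACCC match, and Urod, Ppox and Abcb10 had neither motif. The matches are descriptions of letters and not binding sites. The stretches that hold the GATA matches are shown on the strand of the gene, with the matches in capitals, where TTATCT and TTATCA are the motif read from the other strand. For Alas2 they lie at chrX:150547167-150547374, followed by the 30 bases chrX:150547375-150547404 with its CACCC matches, of which the 3 farthest from the start overlap and all 4 fall in the exon that GENCODE M21 starts earlier than RefSeq. The Uros stretch is chr7:133702551-133702580 (minus strand) and the Cpox stretch is chr16:58669958-58670207 (plus strand, as for Alas2).
Alas2 upstream: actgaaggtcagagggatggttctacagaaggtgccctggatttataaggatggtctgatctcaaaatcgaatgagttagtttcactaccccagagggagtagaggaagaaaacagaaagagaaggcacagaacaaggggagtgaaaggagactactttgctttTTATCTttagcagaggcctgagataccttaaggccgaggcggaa
Alas2 CACCC: GGGGGTGGGGTGGGGtGGGCGGGGctgagc
Uros inner start: tctccctcagccTTATCAgtgacagagggc
Cpox upstream: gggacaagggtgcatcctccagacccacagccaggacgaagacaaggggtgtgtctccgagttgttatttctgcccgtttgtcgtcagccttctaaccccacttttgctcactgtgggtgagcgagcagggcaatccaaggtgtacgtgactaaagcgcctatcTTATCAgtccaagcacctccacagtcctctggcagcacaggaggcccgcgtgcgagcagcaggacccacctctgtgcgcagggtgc
The GATA match of Alas2 began 86 bases before its RefSeq start, that of Cpox 86 bases before its start, and that of Uros 68 bases before its inner start.

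The 2 genes of the first step differed in direction. Alas1 (ENSMUSG00000032786, chr9:106233455-106248654 on mm10) measured 23.5, 25.5 and 22.9 CPM in the 3 controls and 19.2 and 20.4 CPM in the 2 KO libraries. The KO values were below all controls by a small margin, with a log2 fold change of -0.27 (standard error 0.152). Alas2 (ENSMUSG00000025270, chrX:150547375-150570638) measured 23.9, 12.8 and 5.01 CPM in the controls and 65.6 and 91.7 CPM in the KO. Both KO libraries lay above every control, and the controls themselves were spread over 4.77-fold, the widest spread of the 9 genes, against 1.11-fold for Alas1. The log2 fold change of Alas2 was 2.48 (standard error 0.54). Some exon bases of Alas2 (311 of 2403) are shared with Apex2 on the other strand, and the sources do not say whether counting used the strand. Apex2 had a log2 fold change of -0.01. Per exon base, Alas2 counts stood to Alas1 counts as 2.61, 1.29 and 0.562 to 1 in the controls and as 8.76 and 11.5 to 1 in the KO. The erythroid form thus had fewer counts per base than the ubiquitous form in control replicate 3 alone.

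Of the set, Alad, Uros and Urod work in the cytosol. Alad (ENSMUSG00000028393, chr4:62509169-62519918), which joins 2 molecules of aminolevulinic acid into porphobilinogen, measured 14.4, 18.1 and 12.5 CPM in the controls and 49.4 and 64.5 CPM in the KO. Uros (ENSMUSG00000030979, chr7:133686243-133710072), which closes the ring as uroporphyrinogen III, measured 26.2, 25.3 and 20.8 CPM in the controls and 49.6 and 51.1 CPM in the KO. Urod (ENSMUSG00000028684, chr4:116989965-116994413), which trims the side chains of the ring, measured 35.5, 49.98 and 39.4 CPM in the controls and 54.1 and 66.3 CPM in the KO. The KO libraries were above all controls for each of these genes, but for Urod the gap between KO replicate 1 and control replicate 2 was narrow. The log2 fold changes were 1.92 for Alad (standard error 0.206), 1.06 for Uros (standard error 0.15) and 0.53 for Urod (standard error 0.184).

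The last 3 enzymes work at or in the mitochondrion. Cpox (ENSMUSG00000022742, chr16:58670292-58717636), which makes protoporphyrinogen, measured 37.2, 50.6 and 39.9 CPM in the controls and 220 and 240 CPM in the KO. Ppox (ENSMUSG00000062729, chr1:171275990-171281186), which oxidizes that product to protoporphyrin, measured 63.7, 54.0 and 59.6 CPM in the controls and 74.0 and 84.2 CPM in the KO. Fech (ENSMUSG00000024588, chr18:64452914-64490251), which inserts the iron, measured 39.6, 36.0 and 27.1 CPM in the controls and 103 and 109 CPM in the KO. These neighbours in the pathway therefore differed in size of change, with a log2 fold change of 2.44 for Cpox (standard error 0.164), 0.42 for Ppox (standard error 0.132) and 1.63 for Fech (standard error 0.175). Ppox shares 791 of its 4515 exon bases with B4galt3 on the other strand, which had a log2 fold change of -0.18.

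The transporter Abcb10 (ENSMUSG00000031974, chr8:123952459-123983122) had the highest fold of the set. It measured 8.83, 12.1 and 7.13 CPM in the controls and 87.9 and 114 CPM in the KO, a log2 fold change of 3.42 (standard error 0.242), or 10.7-fold. Among the 15350 genes tested it ranked 96 by log2 fold change.

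**Figure D1:**
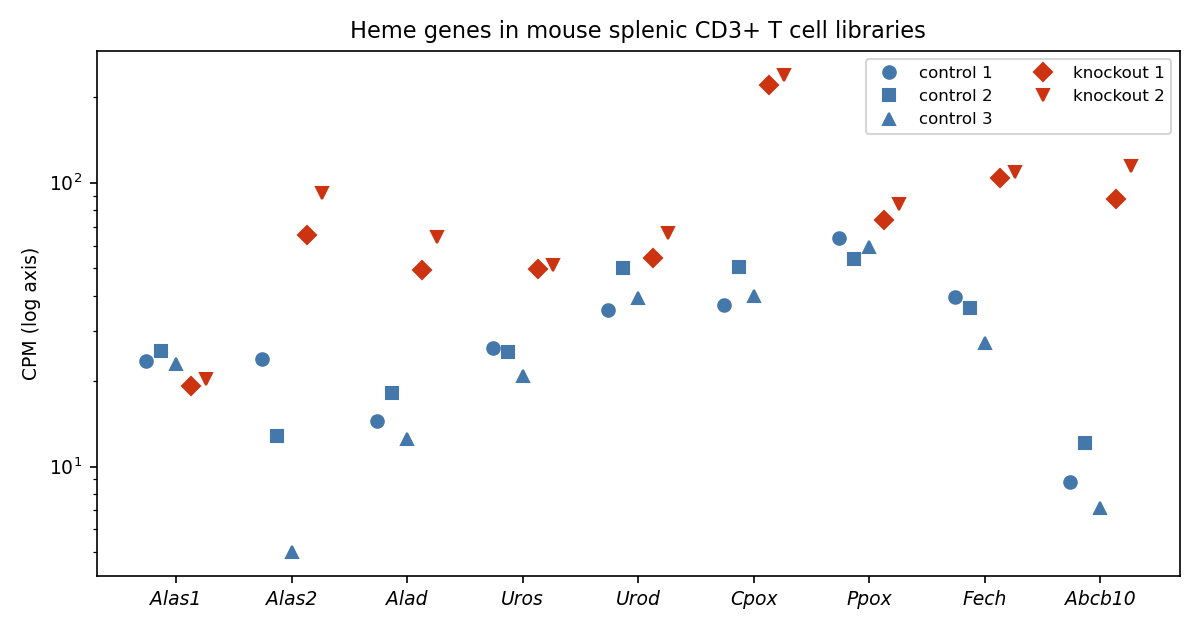
CPM of the 9 heme genes in each mouse library on a log axis, with blue symbols for the 3 controls and red symbols for the 2 knockouts. The knockouts lie above all controls for every gene but Alas1, and the controls of Alas2 are spread from 5.01 to 23.9 CPM.

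All 9 genes passed the filter on low counts. A gene was called in mouse cells when edgeR gave it an adjusted p under 0.05 and its change reached 1 in size on the log2 scale. On that rule 5 of the 9 were called higher (Alad, Uros, Cpox, Fech and Abcb10), beside 2.47% of all genes tested, and 0 were called lower, beside 0.111% of all genes. Both KO libraries exceeded all controls for 8 of the 9, beside 18.2% of all genes, and Alas1 was below all controls, as were 17.8% of all genes. The median log2 fold change was 1.63 for the 9 genes and -0.02 for all genes tested. Since these genes were chosen with the comparison known, the counts describe the set and support nothing further. Uros lay just inside the fold threshold and Urod (log2 fold change 0.53) was the next below it, whereas Alas2 had a large fold and missed the threshold on the adjusted p. The calls depended on single libraries, as did those of all genes. Without control replicate 1 edgeR called 0 of the 9 higher, and 6 of all genes in place of 379. Of the 9 genes, 7 were then higher at an unadjusted p under 0.05, and the log2 fold changes of the 5 genes ran from 1.13 to 3.38. With 1 KO library left, they ran from 1.063 to 3.58 without KO replicate 1 and from 1.018 to 3.205 without KO replicate 2. With all libraries, DESeq2 called 6 of the 9 genes and 756 of all genes higher. Uros fell under the fold threshold with the replicate number as a block (log2 fold change 0.97) and without control replicate 3 (0.96), and in both fits Alas2 was called in its place (2.14 and 2.098).

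Levels can be set side by side between genes only per length, here as CPM per kilobase of merged exons. In the controls Urod stood highest at 16.1 ± 2.89 CPM per kilobase (SD, n = 3), then Ppox at 13.1 ± 1.08 and Alad at 8.02 ± 1.52. Uros, Cpox and Alas2 followed at 6.74 ± 0.814, 6.39 ± 1.07 and 5.78 ± 3.94, and their ranges over the controls overlapped from one to the next. Alas1 was at 3.88 ± 0.215, Fech at 2.48 ± 0.463 and Abcb10 at 2.17 ± 0.581. Only Ppox from Alad and Alas1 from Fech were separated, as neighbours in this order, with no overlap between the control libraries. In the KO the order was led by Cpox at 34.6 ± 2.11 CPM per kilobase (SD, n = 2), Alas2 at 32.7 ± 7.68 and Alad at 30.4 ± 5.70. Abcb10 moved from the lowest place in the controls to 23.5 ± 4.30, and Alas1 was last at 3.21 ± 0.135. The order in the controls depends on the length used, and with the longest transcript 5 of the 9 genes changed place.

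Next the members were set against red cell genes within each library, which leaves out the library scaling. Erythroid markers moved with the members: all 11 exceeded the controls in both KO libraries (18.2% of all genes did), 6 were called higher (2.47% of all genes), and their median log2 fold change was 2.62. Slc4a1, the anion exchanger of the red cell membrane, measured 36.7, 54.6 and 14.1 CPM in the controls and 403 and 504 CPM in the KO. The part of the erythroid markers in the change of the heme genes was not tested.

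The ratios were not alike for all members. Alas2 counts were 1.10%, 1.11% and 0.899% of the summed counts of 4 globin genes in the controls, and 1.78% and 1.73% in the KO. Alas2 therefore kept near 1% of the globin counts in all 3 controls, although its own CPM spread widely there, and stood higher against the globins in both KO libraries. Against Slc4a1, the shares of Alas2 ran the other way, with 65.0%, 23.5% and 35.6% in the controls and 16.3% and 18.2% in the KO. Abcb10 counts were 24.0%, 22.1% and 50.7% of the Slc4a1 counts in the controls and 21.8% and 22.6% in the KO. In 4 of the 5 libraries this share lay between 21.8% and 24.0%, and control replicate 3, the shallowest, with 114 counts of Abcb10, stood apart. Against the 4 globin genes, Abcb10 counts were 0.407%, 1.05% and 1.28% in the controls and 2.38% and 2.15% in the KO, so that on this reference both KO libraries were above all controls.

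**Figure D2:**
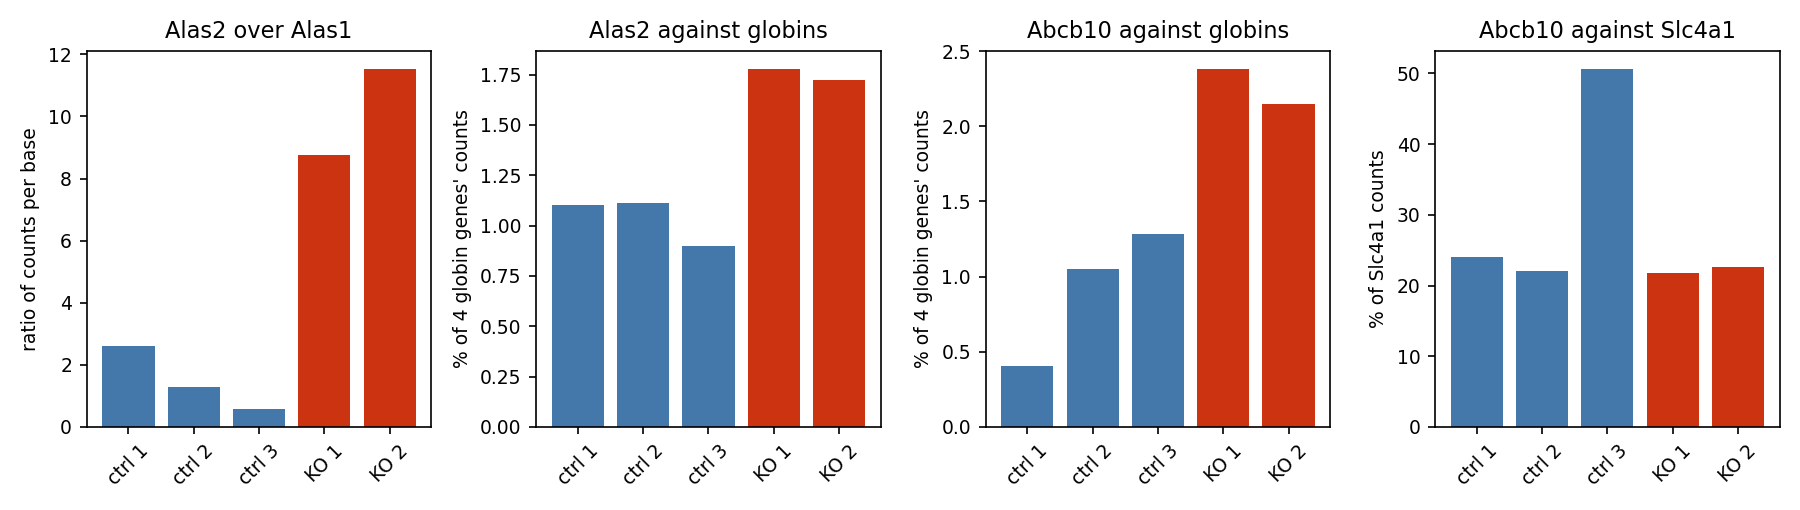
Within-library ratios in the 3 controls (ctrl, blue) and 2 knockouts (KO, red): Alas2 over Alas1 in counts per base, Alas2 as a percentage of the counts of 4 globin genes, Abcb10 as a percentage of the same globin counts, and Abcb10 as a percentage of Slc4a1 counts. The first 3 ratios are higher in both knockouts than in any control, whereas the last is between 21.8% and 24.0% in all libraries but control 3.

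Markers of other blood cells were compared as well. T cell markers had a negative log2 fold change in 11 of 11 genes (median -0.47), and 10 of them lay below all controls in both KO libraries, beside 17.8% of all genes. edgeR called 0 of them (8 were lower at an unadjusted p under 0.05), beside 0.111% of all genes called lower. Cd8b1 alone passed the adjusted p, and its log2 fold change of -0.94 missed the fold threshold. DESeq2 called 0 of the T cell markers, and 73 of all genes lower. At such shares a count of 0 in a short list says little. Macrophage markers, which matter because splenic macrophages clear red cells, summed to 82.2 to 433 CPM in the controls and 162 to 233 CPM in the KO. B cell markers summed to 24.5 to 209 CPM and 24.1 to 74.9 CPM, neutrophil and precursor markers to 4.25 to 158 CPM and 23.7 to 41.7 CPM, and megakaryocyte markers to 6.95 to 15.0 CPM and 10.6 to 13.99 CPM, so that the summed levels of these 4 groups overlapped between the conditions. The log2 fold change was negative in 8 of 8 macrophage markers (median -0.55) and 4 of 4 B cell markers (median -1.15). Of these, 0 lay below all controls in both KO libraries, beside 17.8% of all genes, and 0 were lower at an unadjusted p under 0.05. Among tested neutrophil and precursor markers 2 were positive and 2 negative, and among megakaryocyte markers 3 and 1. Within the megakaryocyte list the sum was carried by Itga2b, while Gp9, a platelet receptor subunit, measured 0.081, 0.277 and 0 CPM in the controls and 1.12 and 1.38 CPM in the KO. edgeR called none of the 4 megakaryocyte genes (1 was higher at an unadjusted p under 0.05), beside 2.47% of all genes called higher and 0.111% called lower. DESeq2 called 1 of the 4 higher, and 756 of all genes.

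The genes most like Alas2 over the 5 libraries were sought by the root mean square difference of centred log2 CPM among 12762 genes. St3gal5 was nearest (0.216), then Syngr1 (0.231), the beta globin Hbb-bt (0.258), Lrrn3 (0.265) and the mitotic kinase Ttk (0.324). St3gal5, a sialyltransferase of ganglioside synthesis, measured 6.32, 4.92 and 1.88 CPM in the controls and 25.6 and 29.4 CPM in the KO, the same order of libraries as Alas2. For Alas1, whose level varied little, the nearest genes were 1810030O07Rik (0.0192), Tmed4 (0.0199), the lymphocyte receptor Ly9 (0.0199), Vps26c (0.0245) and Ess2 (0.0277). Ly9 measured 252, 270 and 249 CPM in the controls and 202 and 215 CPM in the KO. With 5 libraries and 2 groups, such likeness is a description, and no p is given.

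The other genes of the pathway were taken as 3 lists. In the list of other synthesis and supply genes, 18 of 18 were tested. edgeR called 3 higher, beside 2.47% of all genes, and 0 lower, beside 0.111% of all genes. At an unadjusted p under 0.05, 0 were lower, and DESeq2 called 0 lower. The median log2 fold change was 0.33. Slc25a37, the mitochondrial iron importer mitoferrin 1, measured 82.8, 102 and 95.6 CPM in the controls and 229 and 252 CPM in the KO (log2 fold change 1.36). Abcb6, a porphyrin transporter, measured 9.31, 8.16 and 6.44 CPM in the controls and 18.3 and 29.9 CPM in the KO (1.59). Both were called higher. The mitochondrial glycine carrier Slc25a38 measured 23.1, 25.0 and 25.7 CPM in the controls and 38.9 and 46.4 CPM in the KO (0.80), and Tmem14c, which carries protoporphyrinogen, 53.7, 73.4 and 40.9 against 86.0 and 108 CPM (0.79). Neither was called: Slc25a38 missed only on the fold threshold, and Tmem14c on that and on the adjusted p. In both KO libraries 9 of the 18 genes exceeded all controls, beside 18.2% of all genes.

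Genes of heme export, import and breakdown did not move as a block. Of 10 genes 9 were tested (Flvcr2 had no counts), and the median log2 fold change was 0.17. edgeR called 1 higher, beside 2.47% of all genes, and 0 lower, beside 0.111% of all genes. At an unadjusted p under 0.05, 1 was lower, and DESeq2 called 0 lower. The called gene was Blvrb, a biliverdin reductase abundant in red cells, with 13.4, 20.8 and 7.88 CPM in the controls and 61.1 and 72.3 CPM in the KO (log2 fold change 2.24). Hebp1, a heme-binding protein, had a log2 fold change of 2.31 and the exporter Abcg2 one of 0.93, and neither was called. Hebp1 missed only on the adjusted p, and Abcg2 only on the fold threshold. Hmox1, the heme oxygenase that macrophages induce, measured 86.5, 84.7 and 23.6 CPM in the controls and 48.1 and 36.9 CPM in the KO, so the groups overlapped. The heme exporter Flvcr1 measured 41.1, 37.2 and 42.4 CPM in the controls and 38.5 and 41.1 CPM in the KO, and the lysosomal importer Slc48a1 had a log2 fold change of 0.17. In the list of heme use, edgeR called 0 of 8, beside 2.47% of all genes called higher and 0.111% called lower. At an unadjusted p under 0.05, 0 were higher and 1 was lower, and DESeq2 called 0. The median was -0.05. Its 3 widest values were -0.32 for catalase (Cat), 0.23 for Cox15 and -0.21 for Cox10, which work on heme A for cytochrome oxidase.

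**Figure D3:**
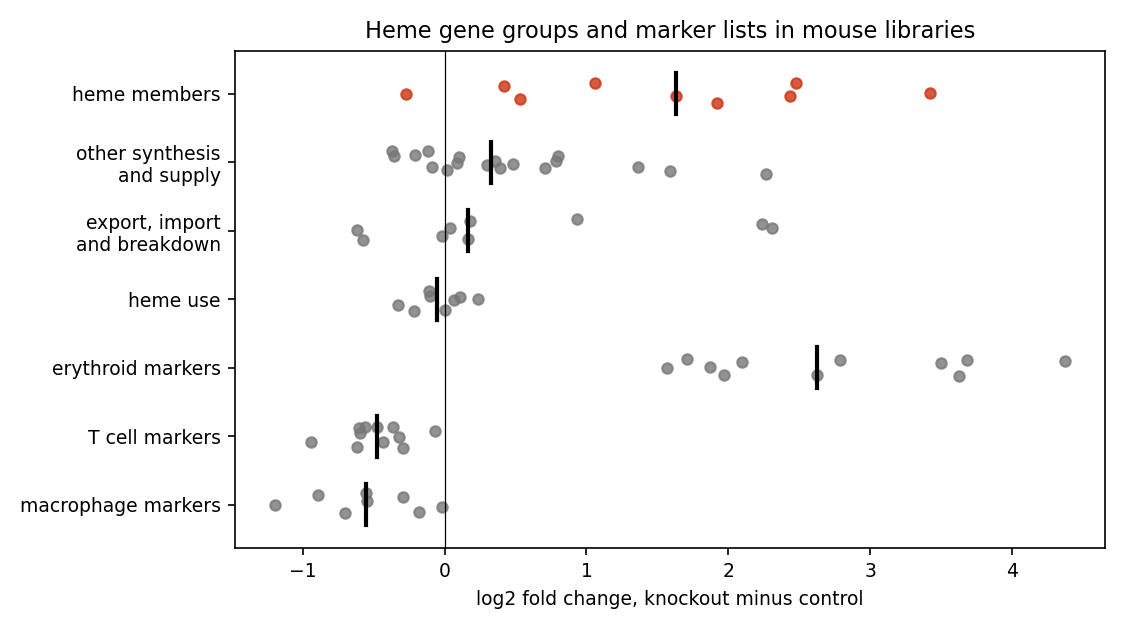
Log2 fold changes (knockout minus control) of the 9 heme genes (red) and of 3 pathway lists and 3 marker lists (grey) in the mouse libraries, each point a gene and each black bar the median. The medians are 1.63 for the heme genes, 0.33, 0.17 and -0.05 for the pathway lists, 2.62 for erythroid, -0.47 for T cell and -0.55 for macrophage markers.

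The same genes were then read in J.gamma1 cells, a comparison that the rule for the set did not use, although earlier results of these libraries were known too when the genes and lists were chosen. IRF2BP2 itself measured 204 and 199 CPM with sh-NC and 79.0 and 93.8 CPM with sh-IRF2BP2. ALAS2 had 0 counts in all 4 libraries, which allows up to 0.116 CPM in the shallowest of them, with counting error alone considered. Per kilobase of exons, ABCB10 stood highest in the sh-NC cells with 112 CPM per kilobase, ahead of ALAS1 with 27.2 and CPOX with 12.9. UROD, ALAD, FECH and UROS lay between 5.97 and 10.9, and PPOX was lowest of those detected at 0.981. In the mouse control libraries, which also held erythroid marker RNA, the homolog of the leading gene, Abcb10, had been the lowest. The order in J.gamma1 cells was not checked with another gene length.

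ABCB10 fell after knockdown, from 504 and 451 CPM to 270 and 250 CPM, and its log2 fold change of -0.88 had a standard error of 0.129 and an adjusted p of 0.0066 (edgeR, quasi-likelihood, Benjamini-Hochberg). ALAD fell from 48.6 and 52.8 CPM to 22.0 and 26.2 CPM, and its log2 fold change of -1.07 had a standard error of 0.142 and an adjusted p of 0.0045 in the same edgeR test. For both genes the knockdown libraries were below both controls. FECH measured 110 and 112 CPM with sh-NC and 89.7 and 91.9 CPM with sh-IRF2BP2, also without overlap, but its log2 fold change of -0.29 did not pass (95% interval -0.54 to -0.03, adjusted p = 0.14 from edgeR). With 0.5 on the log2 scale as the smallest change counted, 2 of the 8 tested genes were called lower, beside 5.01% of all 15819 genes. edgeR called 0 higher, beside 5.46% of all genes (0 were higher at an unadjusted p under 0.05, and DESeq2 called 0 higher). The knockdown libraries were below both controls for 3 of the 8, beside 28.7% of all genes, and the median was -0.05 against 0.01 for all genes. The letters AGGTCTA or GGTCTAA, known from earlier results of these libraries, were sought in the 3' untranslated regions. Of 1587 genes that held them 15.4% were called lower, against 4.17% of 9842 genes without GGTCTA. ALAD held them, as did PPOX, which was not called, whereas ABCB10 and FECH held no GGTCTA. The part of these letters in the fall of ALAD was not tested.

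The other 5 genes did not pass the test, and their intervals set how large a change could have been missed. ALAS1 measured 66.0 and 71.9 CPM with sh-NC and 64.2 and 76.4 CPM with sh-IRF2BP2, with a 95% interval of the log2 fold change from -0.28 to 0.33. The intervals were -0.36 to 0.23 for UROS, -0.26 to 0.39 for UROD and -0.25 to 0.33 for CPOX. PPOX was read at only 3.63 and 5.64 CPM with sh-NC and 3.54 and 5.56 CPM with sh-IRF2BP2, and its interval ran from -0.81 to 0.75. The signs of these 5 changed with the scaling, the filter or a library left out, so no direction is given for them.

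In the pathway lists of J.gamma1 cells, edgeR called 0 genes higher in any of the 3 (3 genes in all were higher at an unadjusted p under 0.05, and DESeq2 called 0 higher) and 1 lower in each, so 1 of 18, 1 of 9 and 1 of 8, beside 5.01% of all genes. These shares say nothing particular to the lists, and the called genes are given as single genes. ABCG2 fell from 6.60 and 8.54 CPM to 3.13 and 2.95 CPM (log2 fold change -1.32, adjusted p = 0.019 from edgeR). SDHC, a subunit of succinate dehydrogenase, fell from 104 and 109 CPM to 63.8 and 63.6 CPM (log2 fold change -0.74, adjusted p = 0.007 from edgeR). SDHD, another subunit of that enzyme, had a log2 fold change of -0.21 and was not called. SHMT2, the mitochondrial enzyme that makes glycine from serine, fell from 184 and 185 CPM to 129 and 126 CPM (log2 fold change -0.53, adjusted p = 0.025 from edgeR). In its 3' untranslated region ABCG2 held AGGTCTA or GGTCTAA, SDHC held GGTCTA alone, and SHMT2 held no GGTCTA. Of 1285 genes with GGTCTA alone, 7.7% were called lower. The part of these letters in the falls was not tested. The medians of the lists were -0.10 for synthesis and supply, 0.01 for export, import and breakdown, and -0.12 for heme use.

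Set side by side, the log2 fold changes of ABCB10, ALAD and FECH were negative in J.gamma1 cells, while those of Abcb10, Alad and Fech were positive in mouse cells. The difference between the comparisons was not tested, since species, cell type, way of lowering the gene and the presence of red cell RNA all differ and cannot be told apart.

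**Figure D4:**
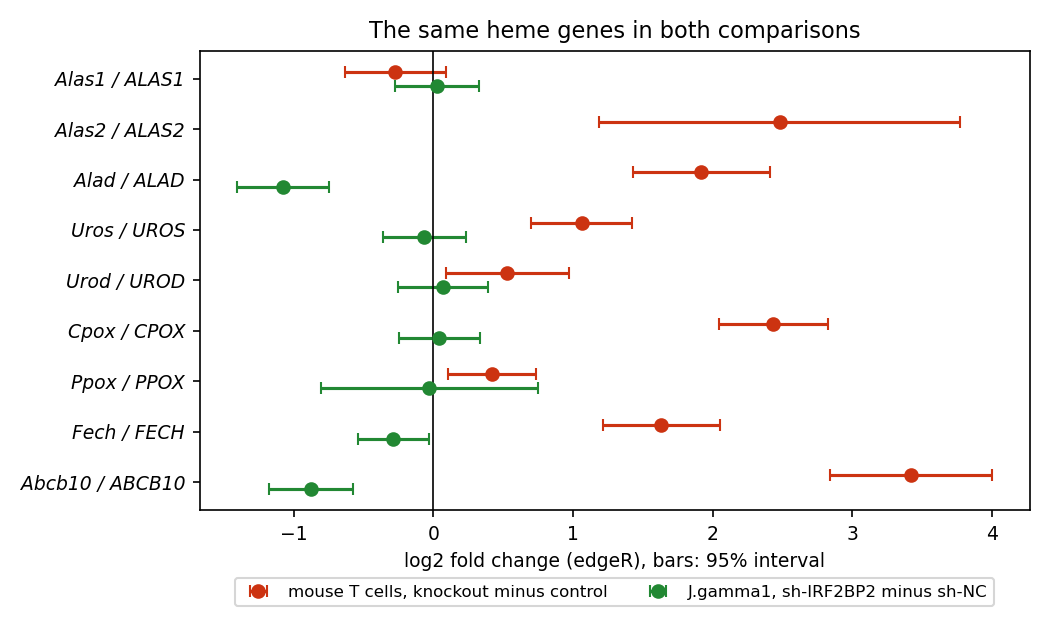
Log2 fold changes of the 9 heme genes in mouse T cells (red, knockout minus control) and in J.gamma1 cells (green, sh-IRF2BP2 minus sh-NC), with 95% intervals from edgeR as bars. ABCB10, ALAD and FECH lie below 0 in J.gamma1 cells with intervals that do not reach it, although FECH did not pass the adjusted p. Abcb10, Alad and Fech lie above 0 in mouse cells, and ALAS2 has no point in J.gamma1 cells because it had 0 counts.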

How the data were processed

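RNA-seq of 5 mouse and 4 J.gamma1 libraries was analysed. The authors aligned reads with HISAT2 2.2.0 to mm10 or hg38 and used StringTie, per the submitters' processing notes, and the counts deposited by the authors are unnormalized whole numbers for each Ensembl gene. How abundance became counts, and whether strand was used, is not given in the sources used here. Rows with identifiers of GENCODE M21 (42462 of 43432, 99.8% of counts) or GENCODE 44 (56105 of 64252, 98.0%) were kept, and gene coordinates and exon lengths come from these annotations. Total counts ranged from 16668577 to 37177523 in mouse and from 26648204 to 31120236 in J.gamma1 libraries. Replicates differed by more than sampling noise (chi-square per gene of at least 20.0).

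The quasi-likelihood functions of edgeR 4.0.16 (glmQLFit, glmQLFTest; R 4.3.3) were run after filterByExpr and TMM scaling, each species alone, with condition as the sole term. Calls required an adjusted p (Benjamini-Hochberg over all genes tested) under 0.05 and a change of 1 (mouse) or 0.5 (J.gamma1) or more, in either direction, on the log2 scale. CPM values use TMM-scaled library sizes. A count of 0 allows up to 3 counts. Members and lists were chosen with earlier results of these data known. Named genes are the members, the 4 widest log2 fold changes of each list, some further genes of these lists, and the 5 genes most like Alas2 and Alas1 among those of at least 1 CPM, with fewer named where little moved; some items are not reported here. Promoter sequences are from RefSeq (GRCm38.p6).

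The alternatives comprised a test by DESeq2 1.42.0, upper-quartile or RLE scaling, other filters and rows, no fold threshold, a block for the replicate number, fits without each library, and another gene length. Counts were simulated with 100 genes changed by 1 and 100 by 2 on the log2 scale. A gene was recovered with an adjusted p under 0.05 and the right sign, without the fold threshold of the calls. By that looser rule edgeR recovered 35 and 78 with 6 false calls among 15350 genes (mouse design). In the J.gamma1 design it recovered 62 and 83 with 9 false calls among 15819 genes. The simulated spread followed the level of a gene alone, so genes of unusual spread such as Alas2 were not covered.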

Additional observations from a re-analysis of the deposited data

Results flagged for a closer look

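For 3 genes, all knockout libraries lay above the controls in mouse cells and both knockdown libraries lay below the controls in J.gamma1 cells. Taken alone, the first held for 18.2% of all genes in mouse cells and the second for 28.7% of all genes in J.gamma1 cells. The direction in mouse cells was known when the genes were chosen. Abcb10 had a log2 fold change of 3.42 in the mouse KO, against -0.88 for ABCB10 after knockdown. Alad had 1.92 against -1.07 for ALAD, and Fech had 1.63 against -0.29 for FECH, the last with an adjusted p of 0.14 from edgeR in J.gamma1 cells. The difference between the comparisons was not tested. With 2 or 3 libraries in each group, single libraries could not be checked as outliers.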

How the results depend on the processing

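In mouse cells, the sign of each of the 9 log2 fold changes was kept under every alternative run, and the count of members called higher lay between 5 and 6 with all libraries and between 0 and 5 with 1 library left out, where a lone library is assumed to vary like the other group. Over all genes, 379 were called higher and 17 lower. DESeq2 called 756 and 73, and the fits without 1 library gave 6 to 532 and 1 to 35. Alas2 passed the adjusted p with DESeq2, with every row of at least 1 count, with the block and without control replicate 3, and its log2 fold change ranged from 2.098 to 3.108 over the libraries left out. The replicate numbers give no pairing by the labels: deviations of same-numbered libraries correlated at 0.258 and -0.04 in mouse and at 0.338 in J.gamma1 cells. In a group of 2 libraries the deviations from the mean are equal and opposite, so swapping the numbers only turns 0.338 into -0.338. These values therefore cannot decide whether libraries were paired. With the replicate block, the calls were 407 higher and 35 lower in mouse cells, and 1293 and 1174 in J.gamma1 cells in place of 864 and 793, and the count of heme genes called was 5 and 2 as before, but in mouse cells Uros dropped out (log2 fold change 0.97) and Alas2 came in (2.14).

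In J.gamma1 cells, 2 heme genes were called lower and 0 higher under every alternative. Over all genes, every row of at least 1 count gave 319 higher and 396 lower, and leaving out a library gave 418 to 1608 and 419 to 1143. Signs reversed with upper-quartile scaling for ALAS1 (-0.026) and CPOX (-0.012), and with every row of at least 1 count for ALAS1 (-0.0041). With 1 library left out, the log2 fold changes of 5 genes crossed 0: ALAS1 from -0.107 to 0.122, CPOX from -0.017 to 0.0999, UROD from -0.064 to 0.203, PPOX from -0.396 to 0.324 and UROS from -0.211 to 0.043. The longest transcript as length moved 5 of 9 places in the control order. The causes were not tested. With 3 and 2 residual degrees of freedom, changes of 1 on the log2 scale were often missed in simulated mouse counts. There 35 of 100 were recovered by adjusted p and sign, without the fold threshold.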
